A study of Mus musculus with 6 samples.

Results

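The genes described here are 38 mouse genes of amino acid supply and of the cell's answer to amino acid shortage and protein folding stress. Of these, 19 encode cytosolic aminoacyl-tRNA synthetases (Aars, Cars, Dars, Eprs, Farsa, Farsb, Gars, Hars, Iars, Kars, Lars, Nars, Qars, Rars, Sars, Tars, Vars, Wars and Yars). The other 19 genes are stress regulators (Atf4, Atf5, Ddit3, Ddit4, Trib3, Chac1, Sesn2 and Ppp1r15a), enzymes of amino acid and folate metabolism (Asns, Psat1, Phgdh, Psph, Shmt2 and Mthfd2), amino acid transporters (Slc3a2, Slc7a5 and Slc7a1) and readouts of endoplasmic reticulum (ER) stress (Hspa5 and Xbp1). They were picked by gene symbol, with no measured value in the rule but with earlier results of these data known. The table held 54446 gene IDs, of which 24938 had a count. RNA sequencing had been run on bone marrow-derived macrophages (BMDMs) of male BALB/c mice 6 to 8 weeks old, grown for 7 days in medium conditioned by L929 cells. BMDMs were left unpolarized (M0), polarized for 24 hours with IFN-γ at 20 ng/mL plus LPS at 50 ng/mL (M1), or polarized for 24 hours with IL4 at 20 ng/mL (M2). Each state was cultured with DMSO (control) or with regorafenib at 1 µM, a kinase inhibitor used against liver cancer. In M1 and M2 the drug was added 1 hour ahead of the polarizing agents. The study's methods give no time of exposure for M0. There was 1 library per condition and 6 libraries in all, so no value below has a replicate of its own condition.

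ATF4 is a transcription factor whose protein is made mainly when the initiation factor eIF2 is phosphorylated, which happens under amino acid shortage, ER stress, viral RNA or heme lack. It switches on genes that import amino acids, build serine, glycine and asparagine, and charge transfer RNAs, and also genes such as Ddit3 and Trib3 that limit growth or lead to cell death when stress lasts. Aminoacyl-tRNA synthetases join each amino acid to its transfer RNA and are needed for all protein synthesis. IFN-γ with LPS makes macrophages inflammatory and changes their amino acid use, and IL4 moves them towards tissue repair. The comparisons below ask how much these transcripts differ with regorafenib within each state, and between the states.

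The libraries held between 25359309 and 34898342 counts. Levels are given as CPM, a gene's counts relative to the library total after trimmed mean of M values (TMM) scaling. All 8 macrophage markers examined, among them Adgre1, Csf1r and Cd68, were above 3 counts in every library. Of 18 markers of other cell types, 5 to 7 were above 3 counts in a library, and 8 (Cd3e, Cd3d, Ms4a1, Ly6g, Siglech, Nkg7, Ncr1 and Cpa3) were at 0 in all 6. Where a pair of values stands for a state, control comes first and regorafenib second. A gene was called higher or lower between 2 libraries when the levels differed at least 2-fold, and the 95% intervals in brackets, on the log2 scale, cover counting error only. None of the 38 genes was under 10 counts in all libraries.

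Promoters (250 bases before to 50 bases from the start site) were read from RefSeq on GRCm38.p6 for 30 of the 38 genes, all but Cars, Hars, Lars, Nars, Rars, Slc7a5, Vars and Wars. Psat1, Slc7a1 and Atf5 have more than 1 entry, which gave 33 promoters. Both strands were searched for 4 motifs. The core of the ATF4 and C/EBP element, TGATGNAA, was found in 8 of the 33 promoters (24.2%) and in 3.97% of all 32851 promoters of the same length. Its 8 holders were Asns, Chac1 and Trib3 and the synthetase genes Aars, Gars, Iars, Tars and Yars. The ER stress element, searched as CCAAT followed after 9 bases by CCACG, was found in the Hspa5 promoter alone among the 33 (3.03%) and in 0.119% of all. The STAT element TTCNNNGAA was in 4 (12.1%, against 8.3% of all), those of Aars, Kars, Shmt2 and Slc7a1. The interferon response element GAAANNGAA was in 2 (6.06%, against 8.56% of all), those of Ppp1r15a and Qars. A match is a description of the letters and was not tested as a binding site.

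The promoters below belong to the 6 genes that held a match and were called in a comparison described further on. They are printed 5′ to 3′ in the direction of the gene, with the matched letters in capitals, and the start site is base 251 of each. No match overlapped another in these 6. The printed Slc7a1 promoter (chr5:148392766-148393065, minus strand) is the only entry of this gene with a match. It and the Shmt2 promoter (chr10:127522395-127522694, minus strand) hold the STAT element, 146 to 138 and 55 to 47 bases upstream of the start. The Yars promoter (chr4:129189653-129189952, plus strand) and the Trib3 promoter (chr2:152344011-152344310, minus strand) hold the ATF4 and C/EBP core just past the start, at bases 4 to 11 and 15 to 22 of the transcript, the latter on the opposite strand. The Ppp1r15a promoter (chr7:45526219-45526518, minus strand) holds the interferon response element 220 to 212 bases upstream. The Hspa5 promoter (chr2:34771840-34772139, plus strand) holds the ER stress element 65 to 47 bases upstream.
Slc7a1: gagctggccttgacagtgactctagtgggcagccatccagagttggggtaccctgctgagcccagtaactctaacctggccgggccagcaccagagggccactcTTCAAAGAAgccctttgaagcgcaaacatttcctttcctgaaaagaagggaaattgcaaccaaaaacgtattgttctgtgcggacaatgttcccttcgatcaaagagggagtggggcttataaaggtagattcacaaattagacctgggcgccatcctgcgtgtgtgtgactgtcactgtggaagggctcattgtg
Shmt2: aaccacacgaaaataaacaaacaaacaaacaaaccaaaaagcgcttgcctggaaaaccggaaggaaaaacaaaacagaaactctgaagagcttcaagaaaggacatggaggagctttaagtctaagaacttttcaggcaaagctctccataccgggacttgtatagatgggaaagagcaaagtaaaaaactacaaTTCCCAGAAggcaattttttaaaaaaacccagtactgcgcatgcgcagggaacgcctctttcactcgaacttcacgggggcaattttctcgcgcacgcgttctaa
Yars: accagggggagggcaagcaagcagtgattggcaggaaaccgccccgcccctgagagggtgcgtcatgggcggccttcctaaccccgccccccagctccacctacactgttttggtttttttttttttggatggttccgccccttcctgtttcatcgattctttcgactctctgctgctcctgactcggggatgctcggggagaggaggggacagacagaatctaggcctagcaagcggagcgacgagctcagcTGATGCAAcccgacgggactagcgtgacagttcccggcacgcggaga
Trib3: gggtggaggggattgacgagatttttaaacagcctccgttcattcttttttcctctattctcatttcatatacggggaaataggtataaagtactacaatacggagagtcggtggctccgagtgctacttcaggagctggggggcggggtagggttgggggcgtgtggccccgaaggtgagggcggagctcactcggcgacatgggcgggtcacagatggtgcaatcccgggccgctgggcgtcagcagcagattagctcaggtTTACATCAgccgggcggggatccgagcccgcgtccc
Ppp1r15a: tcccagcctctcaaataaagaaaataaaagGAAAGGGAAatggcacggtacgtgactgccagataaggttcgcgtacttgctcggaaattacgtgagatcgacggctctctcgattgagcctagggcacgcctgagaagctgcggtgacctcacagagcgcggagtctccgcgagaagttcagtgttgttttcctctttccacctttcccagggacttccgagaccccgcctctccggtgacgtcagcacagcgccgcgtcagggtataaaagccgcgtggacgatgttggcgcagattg
Hspa5: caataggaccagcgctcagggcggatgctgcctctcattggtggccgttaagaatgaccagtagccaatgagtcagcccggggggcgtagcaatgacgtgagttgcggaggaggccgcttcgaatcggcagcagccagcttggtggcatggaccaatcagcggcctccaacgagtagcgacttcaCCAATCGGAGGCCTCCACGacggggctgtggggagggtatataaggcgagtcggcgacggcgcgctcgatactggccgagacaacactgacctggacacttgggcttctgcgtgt

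With regorafenib, most of these genes were at lower levels in M0 and M2 BMDMs, and most were slightly higher in M1 BMDMs, a difference between states that was not tested. In M0, 31 of the 38 genes were lower with regorafenib, with a median log2 ratio of -0.54 where the median over the 13964 genes tested was 0.00. In M2, 34 of the 38 were lower, with a median of -0.47 against -0.03 over 13813 genes. In M1, 15 were lower and 23 higher, with a median of 0.10 against -0.02 over 13440 genes (28 higher when scaled by total counts). In M0 the largest differences were in the transporters Slc7a5 and Slc7a1 and in the enzymes Psat1, Mthfd2 and Shmt2, and in M2 they were in Psat1 and Rars. Other features of the libraries differed in the same states. The 10 most abundant genes of a library took 9.85% of the M0 control counts and 13.8% of those of M0 regorafenib, where the M1 pair had 14.4% and 14.3% and the M2 pair 9.76% and 12.3%. Mitochondrial genes took 1.15% and 1.43% of the M0 counts, 0.961% and 1.01% of the M1 counts, and 1.27% and 1.53% of the M2 counts. The summed macrophage markers were at 31073 and 49167 CPM in M0, 31635 and 34243 CPM in M1, and 22296 and 33997 CPM in M2. Most of this sum was Lyz2, and of the 8 markers 5, 6 and 5 were higher with regorafenib in M0, M1 and M2, with median log2 ratios of 0.63, 0.08 and 0.09. The summed markers of other cell types were at 7.98 and 13.3 CPM in M0, and at 8.66 and 18.5 CPM in M2, where in M1 they went from 87.1 to 36.2 CPM. Of these, Col1a2, a fibroblast collagen, had 46 and 188 counts in M0. The part of these features in the results was not tested. In bulk RNA, fewer cells that carry a transcript and less of it per cell cannot be told apart.

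At 2-fold or more, 6 of the 38 genes fell in M0 and none rose, which is 15.8% of them beside 10.9% of all genes called lower and 9.47% called higher. The 6 were Slc7a5, Psat1, Mthfd2, Slc7a1, Shmt2 and Yars, and Yars lost its call with total counts, upper quartile scaling or 1 CPM added, which left 5. In M2, 4 fell (Psat1, Rars, Slc7a5 and Ddit4) and none rose, 10.5% of the 38 beside 5.07% of all genes called lower and 6.15% called higher. With total counts or 1 CPM added the calls in M2 were 2, Psat1 and Rars. They were 3, without Ddit4, with DESeq2's size factors or upper quartile scaling. In M1, Phgdh rose and none fell, 2.63% beside 1.76% of all genes called higher and 3.46% called lower. At 1.5-fold or more, 17 of the 38 were lower and 1 higher in M0, where 20.2% of all genes were lower and 19% higher. In M1, 1 was lower and 1 higher (8.41% and 4.96% of all genes), and in M2, 10 were lower and none higher (12.6% and 12.7%). The shares at 2-fold rest on few genes, and 2 fewer calls would bring those of M0 and M2 to about the share of all genes. The 95% counting interval of the log2 ratio lay wholly below 0 for 30 genes and wholly above 0 for 6 in M0, for 32 and 4 in M2, and for 7 and 18 in M1.

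**Figure D1:**
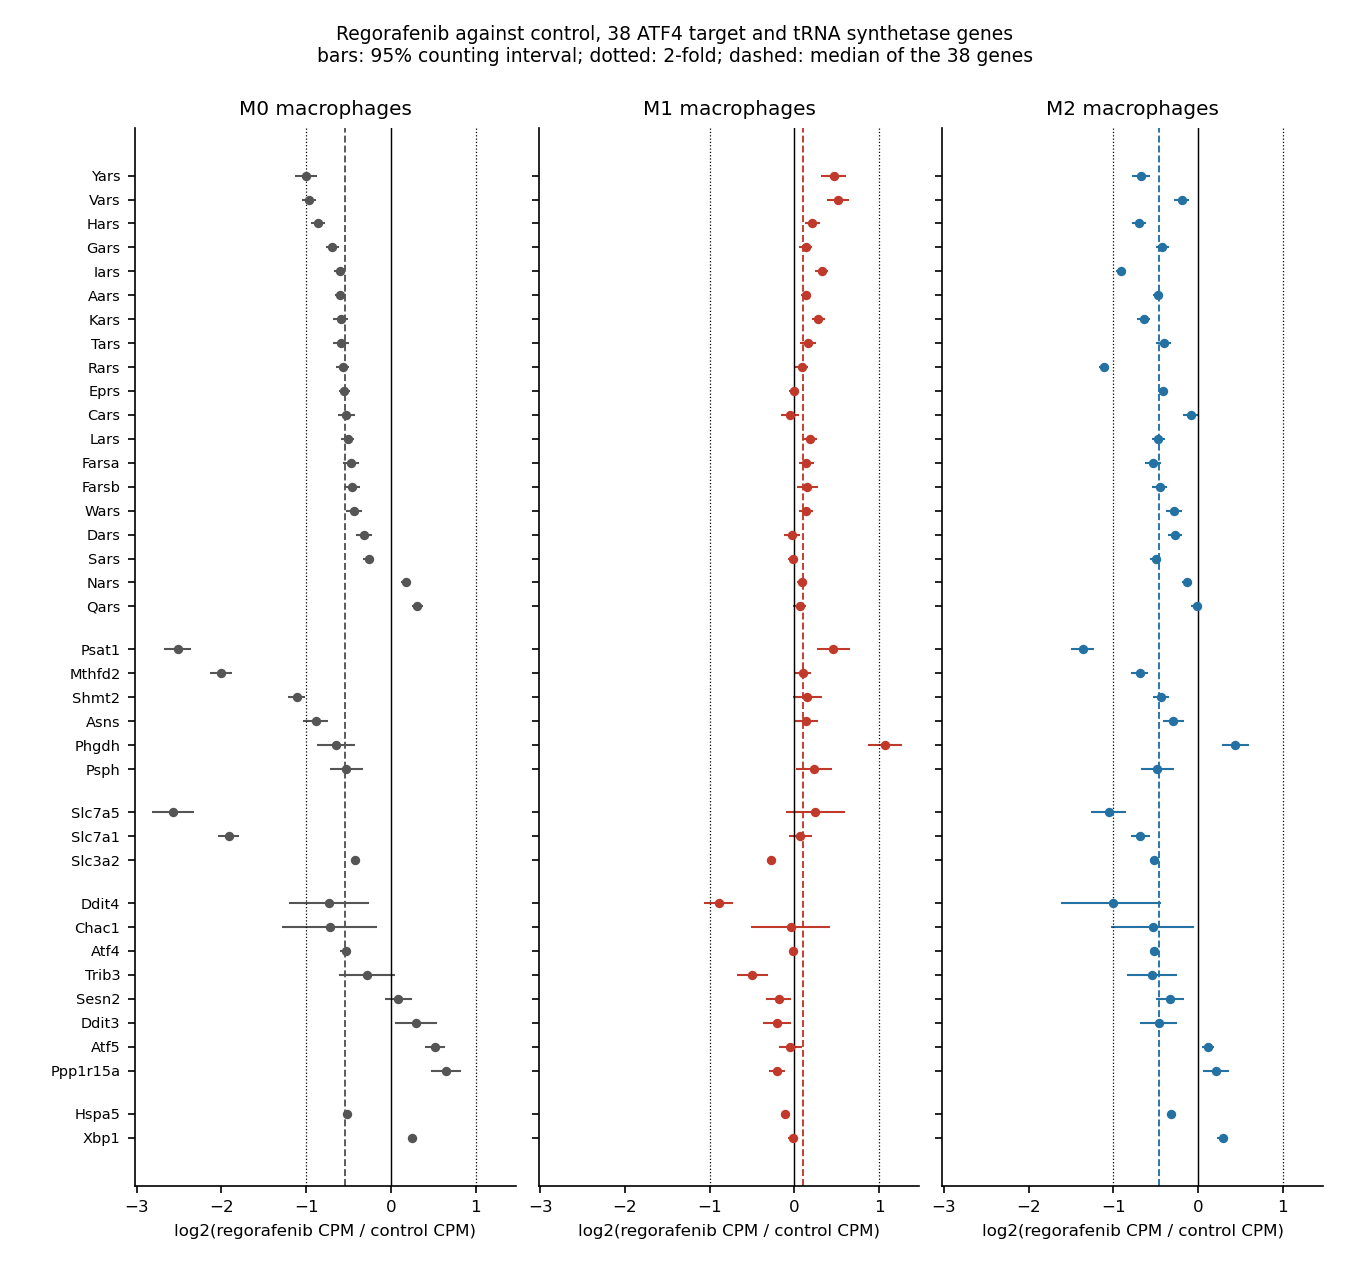
Log2 ratio of regorafenib to control CPM (x axis) for each of the 38 genes (y axis, grouped by role) in M0, M1 and M2 BMDMs, 1 library per condition; bars are 95% counting intervals, dotted lines mark 2-fold and dashed lines the median of the 38 genes. In M0 and M2 the medians are -0.54 and -0.47, and in M1 the points lie around 0.10.

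Among the synthetases, 17 of 19 were lower with regorafenib in M0 (median log2 ratio -0.55) and 19 of 19 in M2 (median -0.45), while 15 of 19 were higher in M1 (median 0.14). In M2 the ratio of Qars was -0.02 with an interval across 0 [-0.09, 0.05], and it turned positive under each of the 3 other scalings, which leaves 18 of 19 lower. The range was -1.003 (Yars) to 0.31 (Qars) in M0, -0.06 (Cars) to 0.52 (Vars) in M1, and -1.12 (Rars) to -0.02 (Qars) in M2. The 2 genes that were higher in M0 were Nars, at 171 and 194 CPM, and Qars, at 109 and 136 CPM. These encode the synthetases for asparagine and glutamine.

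Yars (ENSMUSG00000028811.11, chr4:129189760-129219607), which charges tyrosine and whose promoter is among those printed, stood at 48.0 and 24.0 CPM in M0, 25.4 and 34.9 CPM in M1, and 55.4 and 34.7 CPM in M2. The M0 and M2 controls were the high libraries, and the M1 control was nearly as low as M0 regorafenib. The log2 ratios were -1.003 [-1.13, -0.88] in M0, 0.46 [0.31, 0.61] in M1 and -0.67 [-0.79, -0.56] in M2, so that the M0 value lay on the 2-fold line itself. Vars, for valine, lay just short of it in M0, at 107 and 54.7 CPM or 1.95-fold lower, and had the highest ratio of the synthetases in M1, 33.1 and 47.3 CPM or 1.43-fold higher. Its difference in M2, from 70.0 to 61.1 CPM, was 1.15-fold.

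Rars (ENSMUSG00000018848.4, chr11:35808381-35834506), for arginine, stood at 112 and 75.5 CPM in M0, 118 and 125 CPM in M1, and 261 and 120 CPM in M2. The M2 control was by far the highest library, and with regorafenib the M2 level was that of M1. Rars fell 2.17-fold in M2 (log2 ratio -1.12 [-1.17, -1.06]) and was 1.48-fold lower in M0. Iars, for isoleucine, was also highest in M2 control, with 140 and 91.8 CPM in M0, 103 and 129 CPM in M1 and 211 and 112 CPM in M2. It was 1.88-fold lower in M2, just outside the 2-fold call. Hars, for histidine, was 1.81-fold lower in M0 (101 and 55.5 CPM), 1.62-fold lower in M2 (94.9 and 58.5 CPM) and 1.16-fold higher in M1 (81.5 and 94.3 CPM).

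Kars, for lysine, was 1.51-fold lower in M0, 1.22-fold higher in M1 and 1.56-fold lower in M2. Gars, for glycine, was 1.61-fold lower in M0 and 1.34-fold lower in M2. The log2 ratios of the remaining synthetases in M0 and M2 were -0.60 and -0.47 for Aars (alanine), -0.59 and -0.41 for Tars (threonine), -0.55 and -0.42 for Eprs (glutamate and proline) and -0.51 and -0.47 for Lars (leucine). They were -0.47 and -0.53 for Farsa and -0.46 and -0.45 for Farsb, the subunits of the phenylalanine enzyme. These 6 genes lay in a narrow band, all between -0.60 and -0.41, and their ratios in M1 were between -0.01 and 0.18. Cars (cysteine), Dars (aspartate), Sars (serine) and Wars (tryptophan) completed the set with -0.53 and -0.08, -0.32 and -0.27, -0.26 and -0.50, and -0.43 and -0.28.

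The enzymes ran from -2.52 to -0.52 in M0, 0.10 to 1.07 in M1 and -1.36 to 0.44 in M2 (log2 ratios). Psat1 (ENSMUSG00000024640.9, chr19:15904678-15947337), the aminotransferase of serine synthesis, was at 69.6 and 12.2 CPM in M0, 15.1 and 20.7 CPM in M1, and 53.4 and 20.8 CPM in M2. Only the M0 and M2 controls were high, and the other 4 libraries lay between 12.2 and 20.8 CPM. Psat1 fell 5.72-fold with regorafenib in M0 (log2 ratio -2.52 [-2.67, -2.36]) and 2.57-fold in M2, and was 1.37-fold higher in M1. Mthfd2 (ENSMUSG00000005667.8, chr6:83305691-83325908), a mitochondrial folate enzyme, was at 77.0 and 19.2 CPM in M0, 69.7 and 74.6 CPM in M1, and 62.3 and 38.6 CPM in M2. The lowest library was M0 regorafenib, where the level fell 4.01-fold (log2 ratio -2.01 [-2.13, -1.88]), with a ratio of 0.10 in M1 and -0.69 in M2.

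Shmt2 (ENSMUSG00000025403.5, chr10:127517123-127522444), which makes glycine from serine in mitochondria and whose promoter is printed above, was at 79.3 and 36.7 CPM in M0, 21.9 and 24.4 CPM in M1, and 65.4 and 48.3 CPM in M2. Both M1 libraries were the lowest. Shmt2 fell 2.16-fold in M0 and was 1.35-fold lower in M2. Asns, asparagine synthetase, was 1.85-fold lower in M0 (33.4 and 18.0 CPM) and 1.23-fold lower in M2 (38.1 and 31.0 CPM), with a ratio in M1 whose interval reached 0 [-0.01, 0.28]. Psph, the phosphatase that ends serine synthesis, was at 16.5 and 11.5 CPM in M0, 13.7 and 16.0 CPM in M1, and 17.1 and 12.3 CPM in M2, a log2 ratio of -0.52, 0.23 and -0.48. Of its exon bases, 10.4% overlap Cct6a on the opposite strand. Cct6a was at 199 and 106 CPM in M0, 198 and 212 CPM in M1, and 222 and 130 CPM in M2. The Psph counts are therefore uncertain, and the part of Cct6a in them was not tested.

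Phgdh (ENSMUSG00000053398.11, chr3:98313170-98339990), the dehydrogenase that opens serine synthesis, went another way, at 13.0 and 8.28 CPM in M0, 12.0 and 25.2 CPM in M1, and 17.8 and 24.1 CPM in M2. The regorafenib libraries of M1 and M2 were the highest of the 6 and that of M0 the lowest. It rose 2.10-fold in M1 (log2 ratio 1.07 [0.87, 1.27]), was 1.36-fold higher in M2 and 1.57-fold lower in M0. Of the 100-base words of its exons, 28.1% also occur in Gm7901, a copy with 27 to 87 counts in a library. Reads from these stretches may be lost or assigned to either gene, so the Phgdh counts are uncertain.

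Of the transporters, Slc7a5 (ENSMUSG00000040010.10, chr8:121881150-121907694), which carries large neutral amino acids such as leucine, was at 29.7 and 5.01 CPM in M0, 5.15 and 6.10 CPM in M1, and 19.6 and 9.47 CPM in M2. The M0 and M2 controls were the high libraries, as for Psat1. Slc7a5 fell 5.92-fold in M0 (log2 ratio -2.57 [-2.81, -2.33]) and 2.07-fold in M2, and its M1 interval included 0 [-0.10, 0.59]. Slc7a1 (ENSMUSG00000041313.14, chr5:148327410-148399904), the carrier of arginine and lysine, was at 74.4 and 19.7 CPM in M0, 34.3 and 36.1 CPM in M1, and 54.4 and 33.9 CPM in M2. It fell 3.77-fold in M0 and was 1.60-fold lower in M2. Slc3a2, the heavy chain that partners Slc7a5, was lower in all 3 states, with 281 and 209 CPM in M0, 780 and 643 CPM in M1 and 328 and 228 CPM in M2, log2 ratios of -0.43, -0.28 and -0.53.

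**Figure D2:**
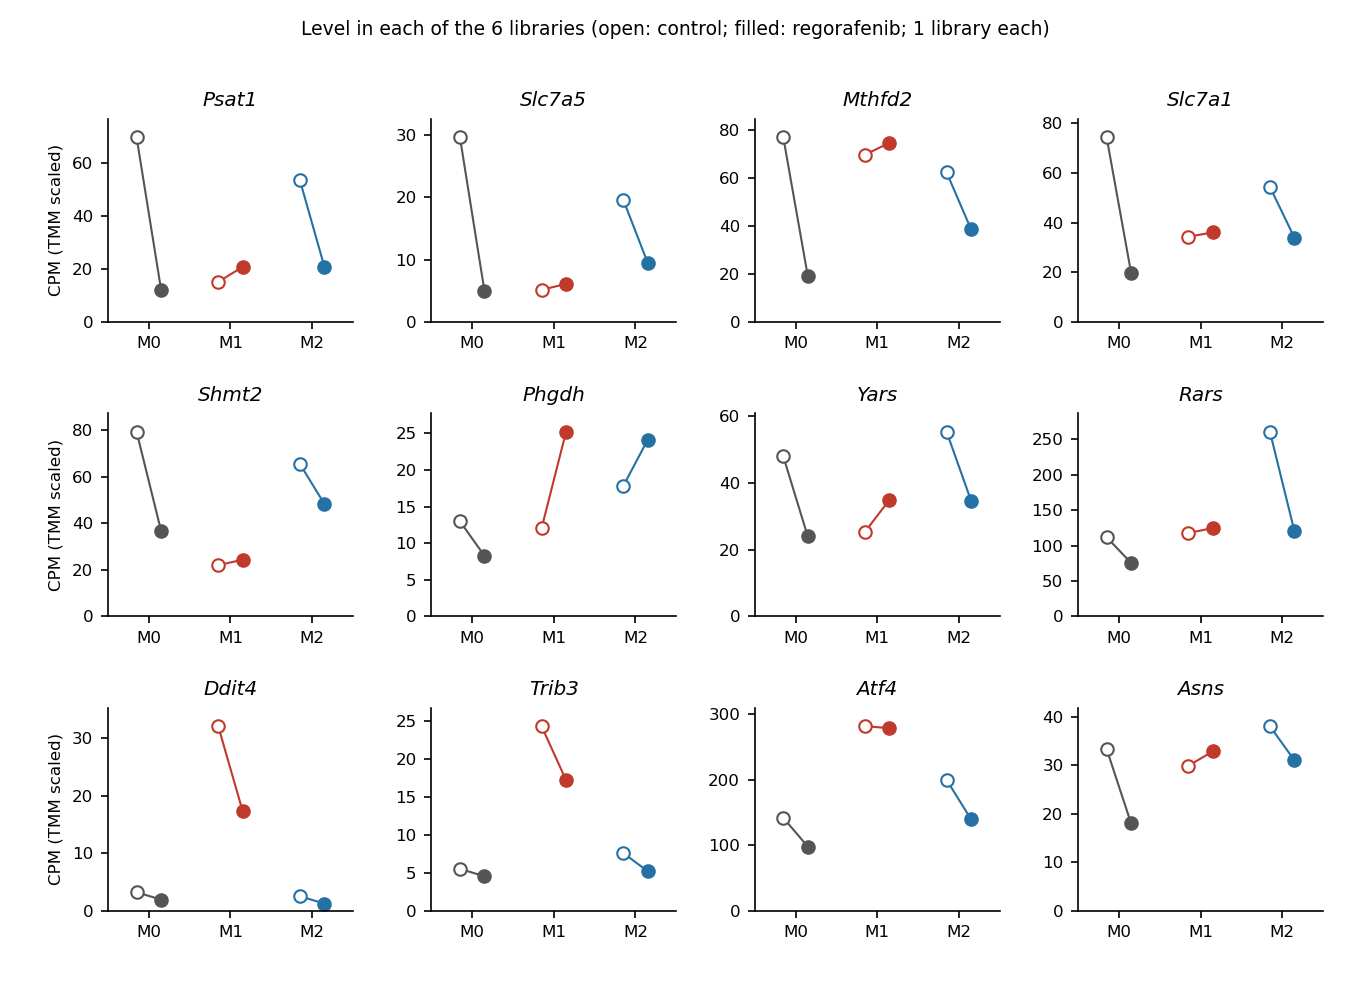
CPM (y axis, from 0) of 12 of the genes in each of the 6 libraries, with the states on the x axis, control as open and regorafenib as filled points joined by a line; each point is 1 library. For Psat1 and Slc7a5 the M0 and M2 controls are high and the other libraries low, whereas Ddit4 and Trib3 are high in M1 alone.

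The stress regulators had other medians than the enzymes and transporters in M0 and M1 and a similar one in M2, and differences between the groups of genes were not tested. In M0, 4 of the 8 were lower and 4 higher with regorafenib, in M1 all 8 were lower (7 with total counts), and in M2 6 were lower and 2 higher. The median log2 ratios were -0.10, -0.20 and -0.49, where the enzymes gave -0.9995, 0.19 and -0.46 and the transporters -1.91, 0.07 and -0.68. Atf4 (ENSMUSG00000042406.8, chr15:80255184-80257541) itself was at 142 and 97.9 CPM in M0, 281 and 278 CPM in M1, and 200 and 139 CPM in M2. Its transcript was 1.45-fold lower in M0 and 1.43-fold lower in M2, and the M1 interval included 0 [-0.06, 0.03]. ATF4 protein was not analysed here.

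Ddit4 (ENSMUSG00000020108.4, chr10:59949669-59951834), an inhibitor of the growth kinase complex mTORC1, was at 3.22 and 1.94 CPM in M0, 32.0 and 17.3 CPM in M1, and 2.52 and 1.25 CPM in M2. It was lower with regorafenib in all 3 states, with log2 ratios of -0.73 [-1.21, -0.26], -0.89 [-1.07, -0.72] and -1.01 [-1.62, -0.43]. The M2 call rests on 92 and 35 counts and was lost under each of the other scalings. Trib3, a pseudokinase induced by ATF4 and CHOP, was at 5.53 and 4.55 CPM in M0, 24.3 and 17.2 CPM in M1, and 7.61 and 5.22 CPM in M2, and its ratios were -0.28, -0.50 and -0.54. Chac1, which degrades glutathione, had 47 to 104 counts in a library and ratios of -0.72, -0.05 and -0.53.

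The regulators that were higher in M0 with regorafenib were Ppp1r15a, Atf5, Ddit3 and Sesn2. Ppp1r15a, the eIF2 phosphatase subunit GADD34, was at 14.2 and 22.2 CPM in M0, 75.9 and 65.8 CPM in M1, and 19.2 and 22.3 CPM in M2. That is 1.57-fold higher in M0, 1.15-fold lower in M1 and 1.16-fold higher in M2. Atf5, a factor of the mitochondrial stress response, was 1.43-fold higher in M0 (31.4 and 44.8 CPM). Ddit3, the pro-apoptotic factor CHOP, was 1.22-fold higher in M0 (7.88 and 9.65 CPM) and 1.38-fold lower in M2 (13.2 and 9.54 CPM). Sesn2, a leucine sensor, had a ratio of 0.09 in M0 whose interval included 0 [-0.07, 0.25].

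Of the ER stress readouts, Hspa5, the chaperone BiP, was at 825 and 577 CPM in M0, 2560.2 and 2375 CPM in M1, and 836 and 668 CPM in M2. It was lower with regorafenib in all states, with log2 ratios of -0.52, -0.11 and -0.32. Xbp1, a factor of the unfolded protein response, was higher in M0 (149 and 178 CPM) and M2 (113 and 138 CPM) and at 207 and 204 CPM in M1.

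The M1 state was set against M0 next. In the control libraries, 6 of the 38 genes were at least 2-fold higher in M1 (Ddit4, Ppp1r15a, Trib3, Ddit3, Hspa5 and Slc3a2) and 5 at least 2-fold lower (Slc7a5, Psat1, Shmt2, Vars and Slc7a1). These are 15.8% and 13.2% of the 38, beside 17.4% and 19.7% of 14168 genes tested, so the count of calls was no larger than that of genes at large. With DESeq2's size factors or upper quartile scaling 7 were higher, Atf4 being the added gene, and 4 were lower with upper quartile scaling (without Slc7a1) and 7 with total counts (with Yars and Farsb). The stress regulators and ER readouts made up most of those that were higher, and metabolic genes most of those that were lower. All 8 stress regulators were higher in M1 control (7 with total counts), with a median log2 ratio of 1.38, and all 6 enzymes were lower (5 with upper quartile scaling), with a median of -0.21. Cell type markers differed between these controls as well. The summed markers of other cell types were at 7.98 CPM in M0 and 87.1 CPM in M1, and of the 8 macrophage markers 5 were higher and 3 lower in M1. The part of these features was not tested.

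Ddit4 rose 9.94-fold between the controls (log2 ratio 3.31 [3.01, 3.63]), from 3.22 to 32.0 CPM. Ppp1r15a (ENSMUSG00000040435.12, chr7:45522916-45526268) rose 5.36-fold. Trib3 (ENSMUSG00000032715.9, chr2:152337422-152344032) rose 4.40-fold, and Ddit3 (ENSMUSG00000025408.15, chr10:127290774-127296288) rose 3.41-fold, from 7.88 to 26.9 CPM. Atf4 was 1.99-fold higher, just short of the call. Hspa5 (ENSMUSG00000026864.13, chr2:34771970-34777547) rose 3.10-fold, and per kilobase of exon it was the most abundant of the 38, at 195 CPM per kb in M0 control and 605 CPM per kb in M1 control. Slc3a2 (ENSMUSG00000010095.13, chr19:8706882-8723369) rose 2.77-fold while its partner Slc7a5 fell 5.76-fold.

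Psat1 fell 4.61-fold from M0 to M1 control, Shmt2 3.61-fold, Vars (ENSMUSG00000007029.16, chr17:35000987-35016322) 3.23-fold and Slc7a1 2.17-fold. M0 control is the divisor both here and in the regorafenib ratio of M0, so that a high level in that library lowers both ratios. The synthetases as a group had no direction that held between scalings, since 10 of 19 were higher with TMM (median 0.03) but 1 of 19 with total counts (median -0.41), a scaling that moves the median of all genes by -0.44 in this pair, to -0.49. With TMM the synthetases ran from -1.69 (Vars) to 0.49 (Sars).

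In the regorafenib libraries the M1 to M0 ratios of the metabolic genes were higher than in the controls. Against M0 regorafenib, Mthfd2 in M1 regorafenib had a log2 ratio of 1.96 where the controls gave -0.14, Phgdh 1.61 where they gave -0.11, Slc7a1 0.87 where they gave -1.12 and Psat1 0.77 where they gave -2.21. The 19 synthetases had a median of 0.60 in the regorafenib pair and 0.03 in the control pair, with all-gene medians of -0.09 and -0.05, and with total counts 0.18 and -0.41 with all-gene medians of -0.51 and -0.49. M0 regorafenib, the divisor of the regorafenib pair, was the lowest of the 6 libraries for each of these 4 genes. The stress regulators had medians of 1.39 in the regorafenib pair and 1.38 in the control pair, though single genes differed in both directions, such as Ppp1r15a at 1.57 where the controls gave 2.42, and Chac1 at 1.13 where they gave 0.45. Shmt2 remained below 0 in both, at -1.85 in control and -0.59 with regorafenib.

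**Figure D3:**
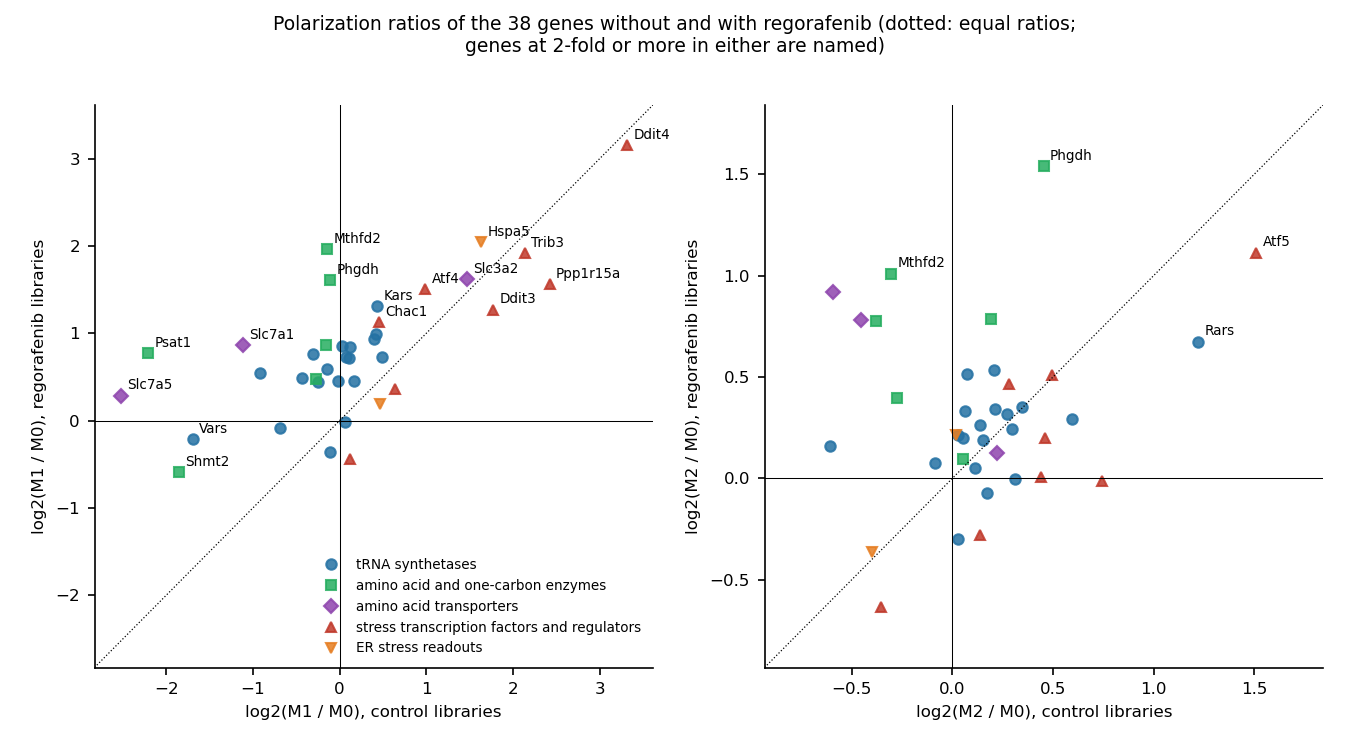
Log2 ratio of M1 to M0 (left) and of M2 to M0 (right) for the 38 genes, in control libraries on the x axis and in regorafenib libraries on the y axis; each point is a gene, its shape and colour give its role, and the dotted line marks equal ratios. Psat1, Slc7a5, Slc7a1, Mthfd2 and Phgdh lie well above the dotted line in the M1 panel, while Ddit4 lies close to it at 3.31 and 3.15.

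The M2 state was nearer to M0. Between the controls, 29 of the 38 genes were higher in M2, with a median log2 ratio of 0.15 against 0.01 over all genes, though 22 of 38 were higher when scaled by total counts. At 2-fold, Atf5 and Rars rose and none fell, 5.26% of the 38 beside 4.69% of 13830 genes called higher and 7.61% called lower. Atf5 (ENSMUSG00000038539.15, chr7:44812256-44816658) was at 31.4 CPM in M0 control and 89.5 CPM in M2 control, a 2.85-fold rise, and at 97.0 CPM in M2 regorafenib. The M2 libraries were the highest for Atf5 and the M1 libraries, at 34.1 and 33.0 CPM, were near M0. Of the exon bases of Atf5, 4.11% overlap Il4i1 and Nup62 on the opposite strand. Il4i1, which is induced by IL4, was at 0.163 and 0.364 CPM in M0, 14.7 and 35.7 CPM in M1, and 3.999 and 42.8 CPM in M2, and Nup62 was at 42.0 to 101 CPM. As the strand that was counted is not known, the Atf5 counts are uncertain, and the part of these genes in them was not tested. Rars rose 2.33-fold in M2 control, and the regorafenib pair gave 1.60-fold. At 1.5-fold, 4 of the 38 were higher and 2 lower, where 9.17% and 14.5% of all genes were. The next largest were Ddit3 at 1.67-fold and Iars at 1.51-fold higher, and Vars at 1.53-fold and Slc7a5 at 1.51-fold lower. Between the regorafenib libraries all 6 enzymes were higher in M2 than in M0, with a median log2 ratio of 0.78 where the controls gave -0.11, among them Phgdh at 2.91-fold and Mthfd2 at 2.01-fold. M0 regorafenib is again the divisor.

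The 6 libraries together allow a test in which each state has both treatments. edgeR's quasi-likelihood fit with state and treatment as terms leaves 2 residual degrees of freedom, and nothing in the labels says which libraries share a mouse or culture, so its p-values measure the spread of these 6 libraries around the model. For regorafenib over the 3 states, 0 of 14110 genes passed a Benjamini-Hochberg adjusted p of 0.05, that is 0% of genes called higher and 0% called lower, and 1637 had an unadjusted p under 0.05, 5.74% higher and 5.86% lower. None of the 38 genes passed, and 2 (5.26%) had an unadjusted p under 0.05 in this edgeR fit. These were Ddit4 (log2 change -0.86, adjusted p = 0.315) and Slc3a2 (log2 change -0.40, adjusted p = 0.409), each lower in 3 of 3 states. DESeq2 called 296 genes for regorafenib, with Ddit4 alone from the 38.

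The model assumes the same regorafenib ratio in each state. Without the M1 libraries the fit, now with 1 residual degree of freedom, called 386 genes for regorafenib, of which none was among the 38. An unadjusted p under 0.05 was then reached by 26 of the 38, 25 lower (65.8%) and Xbp1 higher (2.63%), beside 15.9% and 16.7% of 13538 genes tested. This count was chosen after seeing the data, in which the 38 genes differed most between M1 and the other states, and so is no independent support for the direction. The lowest adjusted p was that of Hars (log2 change -0.76, edgeR adjusted p = 0.0561), then Iars (-0.73, 0.0602) and Psat1 (-1.91, 0.0605).

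For M1 against M0 over both treatments, 5174 genes passed in the edgeR fit, 18.5% of the 14110 called higher and 18.2% called lower. Of the 38 genes, 11 rose and 1 fell, 28.9% and 2.63%. The 11 were Ddit4 (log2 change 3.29, adjusted p = 0.000729), Trib3 (2.09, 0.0019), Ppp1r15a (2.05, 0.00263), Hspa5 (1.90, 0.00222), Slc3a2 (1.61, 0.00198), Ddit3 (1.57, 0.00652), Atf4 (1.31, 0.00485), Kars (0.95, 0.0361), Wars (0.77, 0.0261), Eprs (0.72, 0.0306) and Sars (0.67, 0.0317). Each was higher in M1 in 2 of 2 treatments. The 4 synthetases among them did not pass when edgeR scaled by total counts (adjusted p from 0.188 to 0.405). With that scaling 7 of the 38 rose and 5 fell (Shmt2, Vars, Farsb, Qars and Atf5), and the split over all genes moved from 2609 higher and 2565 lower to 1629 higher and 5113 lower. Shmt2 fell (-1.17, adjusted p = 0.0327).

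For M2 against M0 over both treatments, 28 genes passed in the edgeR fit, 0.184% called higher and 0.0142% called lower, and none was among the 38. An unadjusted p under 0.05 was reached by 3 of the 38, namely Atf5 (adjusted p = 0.0813), Rars (0.339) and Atf4 (0.503). All 3 were higher in M2, 7.89% of the 38 beside 4.54% of all genes higher and 4.73% lower at that p. DESeq2 called Atf5 among its 413 genes.

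Other genes of the same pathways were counted from lists. Of 15 genes for the eIF2 kinases, eIF2 and its exchange factor and phosphatase, 1 was at least 2-fold lower with regorafenib in M0, beside 10.9% of all genes, and none was called in M1 or M2. That gene was Eif2ak2, the kinase PKR that responds to double-stranded RNA, at 128 and 53.1 CPM in M0, 241 and 215 CPM in M1, and 75.6 and 52.8 CPM in M2. In the M1 against M0 fit 3 of the 15 rose, namely Eif2ak2, Ppp1r15b and Eif2b5, a share near the 18.5% of all genes. Of 22 to 23 other ATF4 targets that could be tested, 6 were at least 2-fold lower and 1 higher in regorafenib-treated M0 cells, where M1 had 1 of each and M2 had 4 lower, with medians of -0.15, -0.12 and -0.38. All genes gave 10.9% lower and 9.47% higher in M0, 3.46% and 1.76% in M1, and 5.07% lower in M2. Mthfd1l, a folate enzyme, was at 36.8 and 14.1 CPM in M0, 162 and 104 CPM in M1, and 33.8 and 23.6 CPM in M2. Between the M0 and M1 controls 11 of 23 were at least 2-fold higher and 8 lower, among them Slc7a11, the cystine carrier, from 10.1 to 774 CPM, and Slc1a5, a glutamine carrier, from 65.8 to 14.0 CPM. The shares of all genes in that pair were 17.4% and 19.7%.

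The 17 mitochondrial synthetase genes gave no 2-fold call with regorafenib in any state, where all genes gave 10.9% lower and 9.47% higher in M0 and fewer in M1 and M2. Their medians were -0.29 in M0, 0.04 in M1 and -0.20 in M2 where the cytosolic ones gave -0.55, 0.14 and -0.45. Between the controls 15 of the 17 were lower in M1 than in M0 (median -0.34, or -0.20 with upper quartile scaling and -0.78 with total counts). Mars2 and Vars2 fell in the edgeR fit, which called 18.2% of all genes lower. Of 5 genes for scaffold proteins of the multisynthetase complex and for other cytosolic synthetases, Eef1e1 and Aimp2, both scaffold proteins, fell with regorafenib in M0, beside 10.9% of all genes. Eef1e1 was at 24.2 and 7.55 CPM in M0, 23.3 and 30.7 CPM in M1, and 29.8 and 9.72 CPM in M2, and so fell in M2 as well, beside 5.07% of all genes. Aimp2 was at 25.2 and 8.77 CPM in M0, 24.4 and 23.7 CPM in M1, and 23.2 and 12.8 CPM in M2, and 29.4% of its exon bases overlap Eif2ak1 on the opposite strand. In M1 their log2 ratios were 0.40 and -0.04, and the difference between states was not tested.

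The 20 ER chaperone and unfolded protein response genes had a median log2 ratio with regorafenib of -0.52 in M0, -0.12 in M1 and -0.22 in M2, with 15, 18 and 13 of the 20 lower. Manf, a secreted ER stress factor, was the only call, at 82.2 and 35.7 CPM in M0, so that the 20 genes had a smaller share of calls there than the 10.9% lower and 9.47% higher of all genes. Between the controls all 20 were higher in M1 than in M0, 12 of them at least 2-fold beside 17.4% of all genes (median 1.23), though 18 of 20 were higher when scaled by total counts. In the edgeR fit 16 of the 20 rose in M1 beside 18.5% of all genes, among them Calr, Hyou1, Creld2 and Dnajb9. Creld2 went from 39.3 CPM in M0 control to 184 CPM in M1 control.

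**Figure D4:**
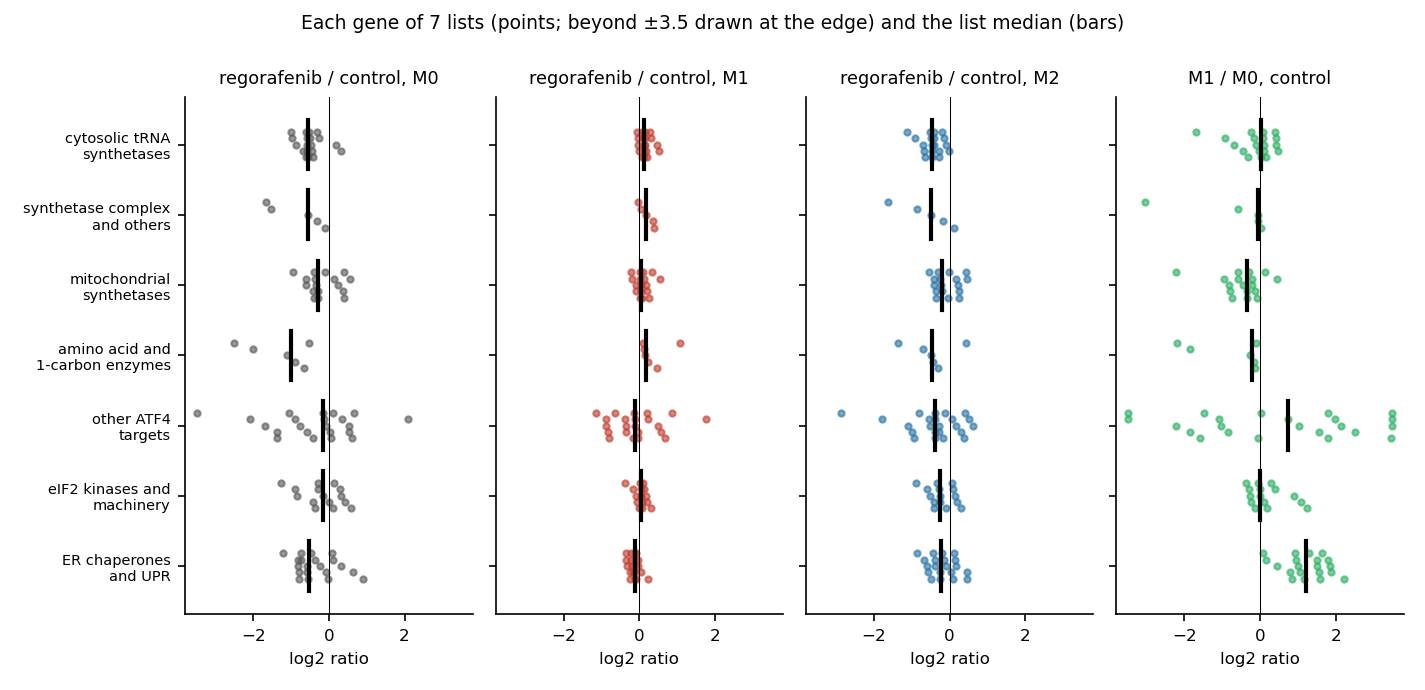
Log2 ratios (x axis) of the genes of 7 lists (y axis) for regorafenib against control in M0, M1 and M2 and for M1 against M0 in the controls; each point is a gene with at least 10 counts in 1 of the 2 libraries, a count of 0 entered as 0.5, and black bars are list medians. Cytosolic synthetases and amino acid enzymes lie left of 0 in M0 and M2 with regorafenib except Nars and Qars in M0 and Phgdh in M2, and ER chaperones lie right of 0 in M1 against M0.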

How the data were processed

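The 38 genes and all gene lists were chosen with earlier results of these data known. RNA was sequenced from 6 libraries, 1 for each of M0, M1 and M2 BMDMs with and without regorafenib, from TruSeq stranded mRNA libraries read for 100 bases from both ends. The authors deposited raw counts per gene. Per their methods, reads were trimmed with cutadapt (version 2.4), mapped to GRCm38 with STAR (version 2.7.2a, as in the submitters' processing notes) and counted by STAR per Gencode M19 gene. Which strand column was kept is not given in the sources used here, so reads of overlapping genes on opposite strands may be lost or assigned to the wrong gene. Names, positions and exon lengths came from Gencode M21. Of 54446 IDs, 53229 matched with version, 1180 without, and 37 stayed unnamed. A further ID named Ddit3 (ENSMUSG00000116429.1) had 0 counts in all libraries and was left out.

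Counts were scaled by TMM in edgeR (version 4.0.16, R 4.3.3; factors 0.820 to 1.12). Ratios between 2 libraries used scipy 1.17.1 and numpy 2.4.6 in Python 3.11.15, with 0 entered as 0.5, genes with at least 10 counts in either library, a call at 2-fold, the study's cutoff, and exact binomial 95% intervals scaled by library size. The study's own tool for libraries without replicates simulates replicates and was not used here. DESeq2 (version 1.42.0) was an alternative to the edgeR quasi-likelihood fit. Of each list outside the 38, genes named are the 3 with the largest absolute log2 ratio in a comparison, provided that the higher library had 100 counts or more, or those of a count of 5 or fewer. Alternatives were other scalings, no minimum count, 1 CPM added, a 1.5-fold cutoff, subsets of the states and, chosen after seeing the data, total counts in the edgeR fit, leaving out genes that share sequence, and the count of the 38 at an unadjusted p without the M1 libraries. Exons overlap another gene for Aars (14.3% of bases, Exosc6, same strand, and 0.830% opposite), Psph (10.4%, Cct6a), Farsb (9.47%, Sgpp2), Hars (7.97%, Hars2), Ddit3 (6.13% with the other Ddit3 ID on the same strand, 4.73% with Gm4189 and Mars opposite), Atf5 (4.11%, Il4i1 and Nup62), Cars (3.21%, Gm15580), Shmt2 (1.03%, Ndufa4l2), Yars (0.505%, C77080) and Ppp1r15a (0.409%, Tulp2), on the opposite strand where none is named. The counts of these genes are uncertain. Depth of 25359309 to 34898342 counts per library sets the width of the intervals.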

Additional observations from a re-analysis of the deposited data

Results flagged for a closer look

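For 5 genes the regorafenib ratio pointed one way in a state and the opposite way in another, with both counting intervals off 0 and at least 1 of the ratios past 2-fold. With upper quartile scaling Yars is no longer past 2-fold in M0, and the M1 intervals of Mthfd2 and Rars reach below 0. With 1 library per condition the differences between states were not tested. Psat1 had a log2 ratio of -2.52 in M0 and 0.46 in M1, a difference of -2.98, and its M1 ratio exceeded its M2 ratio of -1.36 by 1.82. Mthfd2 was at -2.01 in M0 and 0.10 in M1, a difference of -2.10, and the M1 interval began at 0.00. Phgdh was at -0.65 in M0 and 1.07 in M1, a difference of -1.72, and its counts are uncertain because of sequence shared with Gm7901. Yars was at -1.003 in M0 and 0.46 in M1, a difference of -1.47. Rars was at 0.08 in M1 and -1.12 in M2, a difference of 1.20.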

How the results depend on the processing

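With a 1.5-fold cutoff, the genes of the 38 called with regorafenib were 17 lower and 1 higher in M0, 1 lower and 1 higher in M1 and 10 lower in M2, and 4 higher and 2 lower in M2 against M0 control. The 4 lower in M2 became 2 with total counts or with 1 CPM added. In the edgeR fit for regorafenib, 0 genes became 333 with no filter beyond 1 count, 296 with DESeq2 (1 of the 38 genes) and 0 to 386 when the libraries of a state were left out, the 386 without M1. Of the 38, 2 had an unadjusted p under 0.05, and 26 without M1, where 16.7% of all genes reached it as higher and 15.9% as lower, a count chosen after seeing the data. For M2 against M0, 28 genes became 408 without the filter and 413 with DESeq2 (1 of the 38, Atf5, in each) and 100 with only the 4 libraries of M0 and M2. For M1 against M0, Eprs, Sars and Wars lost their calls with only the 4 libraries of M0 and M1, and these 3 and Kars with total counts. The causes were not tested. Leaving out a library was not possible within a state, since each ratio rests on 1 library a condition. Beyond the edgeR fit, which sets the treatments against each other within each state, no paired analysis was possible. The labels give no replicate number that libraries share. Over the scalings, the median log2 ratio of the synthetases was -0.57 to -0.47 in M0, 0.12 to 0.18 in M1 and -0.45 to -0.38 in M2. Aars and Ddit3, which overlap another gene ID on the same strand, were also left out. So were Phgdh and Slc3a2, which share the most 100-base words with other genes (28.1% and 1.48%). Without these genes 5 of 25 medians moved, those of the transporters to -2.24 in M0, -0.87 in M2 and -1.82 in M1 against M0 control, of the stress regulators in that pair to 0.99, and of the enzymes in M2 against M0 control to -0.28. Chac1, with 47 to 104 counts a library, and Ddit4 in M0 and M2, with 35 to 99 counts, had wide intervals.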

Other observations

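Some other ATF4 targets were near absent in M0 and M2 and present in M1. Stc2, a secreted glycoprotein, had 20.2 CPM in M1 control and 11.6 CPM in M1 regorafenib and at most 0.107 CPM in the other libraries, at least 207-fold higher in M1 than in M0 control when M0 is set to 3 counts. Aldh1l2, a mitochondrial folate enzyme, had 39.9 and 18.0 CPM in M1 and at most 0.358 CPM elsewhere. The reverse order was seen for Gdf15, a stress cytokine, at 5.53 and 1.30 CPM in M0, 0.271 and 0.498 CPM in M1, and 4.16 and 1.22 CPM in M2. Pycr1, an enzyme of proline synthesis chosen after its values were seen, was at 0.651 CPM in M0 control and under the floor of 3 counts in M0 regorafenib, at least 7.15-fold lower, and at least 4.85-fold lower in M2. Tarsl2, a threonyl-tRNA synthetase, was at 10.8 CPM in M0 control, 1.32 CPM in M1 control and 8.60 CPM in M2 control, and fell in M1 in the edgeR fit. Lars2, for mitochondrial leucine charging, was at 1272 to 1878 CPM.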
